A study of Homo sapiens with 4 samples.

Results

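The proteasome and the machinery that presents its peptides on MHC class I were followed in a prostate cancer cell line in which a transcriptional coactivator was overexpressed. The set was defined by gene name: 30 constitutive subunits of the 26S proteasome, the 3 catalytic subunits of the immunoproteasome (PSMB8, PSMB9 and PSMB10), the 2 subunits of the PA28 activator (PSME1 and PSME2), and 5 genes of peptide trimming, transport and loading (TAP1, TAP2, TAPBP, ERAP1 and B2M). The rule used names and no threshold on a measured value. Of the 40 genes, 35 had at least 1 probe set annotated to that gene alone, out of 11963 such genes on the array, and they carried 58 probe sets. After the filter on dim probe sets, 48 probe sets from 33 genes were tested and 10 were too dim to test. PSMC5, PSMD7 and PSMD13 were not analysed here, and neither were PSMA6 and PSME2, whose probe sets were annotated to several genes.

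The cells were LNCaP, an established human line grown from a lymph node metastasis of prostate cancer, which depends on the androgen receptor. All cultures were kept in medium with 10% fetal bovine serum and transfected transiently with Lipofectamine for 24 h, with a MED1 expression vector (2 arrays) or with an empty vector (2 arrays). MED1 is a subunit of Mediator, the complex that connects DNA-bound factors such as nuclear receptors to RNA polymerase II. Labelled cRNA was made from 200 ng of total RNA and hybridised to Affymetrix arrays, and the deposited value is 1 MAS5 signal per probe set and array. Only a portion of the cells takes up plasmid in a transient transfection, and each array averages over the whole culture, so fewer cells expressing a gene and less RNA per cell cannot be told apart. The labels do not say whether the duplicates came from separate cultures, so the p-values measure the spread between these arrays, which may be technical. A comment field on the empty vector arrays names the MED1 vector, whereas their titles, source names and transfection labels name the empty vector, and the grouping follows these.

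The proteasome degrades ubiquitin-tagged proteins inside a barrel of 4 stacked rings, with alpha subunits in the outer rings and beta subunits in the inner ones. PSMB5, PSMB6 and PSMB7 cut the peptide chain in the constitutive particle, and interferon exchanges them for PSMB8, PSMB9 and PSMB10. The 19S cap recognises, unfolds and feeds the substrate, while PA28 is an alternative cap that interferon raises. Some of the resulting peptides are carried into the endoplasmic reticulum by the TAP1 and TAP2 transporter, trimmed by the aminopeptidase ERAP1, and loaded with the help of tapasin (TAPBP) onto class I heavy chains paired with B2M. Prostate cancers are known for low levels of this machinery.

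The promoter windows of these genes were searched for short elements, and matches are printed for some of the members described below. The interferon-stimulated response element was searched as its core, GAAANNGAAA, on both strands of RefSeq promoter windows of 300 bases (250 before and 50 after each start, GRCh38.p14). It occurred in 3.57% of 35116 windows. Among the constitutive subunits it occurred in 2 of 31 windows (6.45%), those of PSMA4 and PSMB4. Among the immunoproteasome, PA28 and presentation genes it occurred in 9 of 13 windows (69.2%), and 9 of these 10 genes had a window with it, PSMB9 being the exception. Of the 40 genes, 35 had a window, and PSMA7, PSMB1, PSMB6, PSMB7 and PSMD4 had none. In the stretches that follow, the match is in capitals and the strand on which it reads as the core is shown. Matches of PSMB8, PSME1, PSME2, PSMA4 and PSMB4 are not printed. The first is from chr16:67936852-67936881, and its match begins 21 bases before the PSMB10 start. The second, from chr6:32853813-32853842, holds the nearer of 2 overlapping TAP1 matches, read on the strand opposite to the gene. The third is from chr15:44711369-44711398, and its match begins 138 bases before the B2M start. The match of the fourth, from chr5:96807924-96807953, lies from base 3 of an ERAP1 transcript and reads on the opposite strand. The matches of the fifth and sixth, from chr6:32838778-32838807 and chr6:33314079-33314108, begin 58 bases before the TAP2 start and 20 bases before the TAPBP start. B2M and TAPBP, like TAP1, each have a second match that overlaps the one shown.
PSMB10: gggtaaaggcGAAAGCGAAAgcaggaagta
TAP1: ccatttagggGAAAGCGAAAtcgaaagcgg
B2M: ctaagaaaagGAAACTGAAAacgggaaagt
ERAP1: ccccaggaccGAAAGTGAAAgtggagcccg
TAP2: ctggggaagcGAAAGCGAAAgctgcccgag
TAPBP: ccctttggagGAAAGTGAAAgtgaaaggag

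TAP1 and PSMB9 stand head to head on chromosome 6 with their RefSeq starts 488 bases apart, so a single intervening region borders both genes. The 250 bases before the TAP1 start (chr6:32853705-32853954, strand of TAP1) are given because both neighbours are described below. The capitals mark the overlapping matches, which read as the core on the other strand.
TAP1 upstream region: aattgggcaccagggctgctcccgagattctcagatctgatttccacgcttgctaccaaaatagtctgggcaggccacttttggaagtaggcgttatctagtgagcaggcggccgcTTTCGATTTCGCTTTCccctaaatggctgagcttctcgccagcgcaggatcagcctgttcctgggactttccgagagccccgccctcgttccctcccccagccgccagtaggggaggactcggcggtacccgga
A match describes the letters of a window and was not tested as a binding site.

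In the arrays as a whole, the MAS5 signals had trimmed means of 500.2 in all 4, and medians of 79.0 and 77.4 in the MED1 arrays against 80.2 and 83.2 in the empty vector arrays. One MED1 probe set (203496_s_at) read 559.2 and 807.2 in MED1-transfected cells, against 292.4 and 315.2 in empty vector cells, a log2 fold change of 1.11 ± 0.16 (SE; limma, adjusted p = 0.032), so it followed the labels. This call was lost without either empty vector array (adjusted p = 0.0607 without replicate 1 and 0.0869 without replicate 2). A second MED1 probe set (203497_at) gave 0.09 ± 0.10 (limma, adjusted p = 0.83). Fold changes here are MED1 over empty vector on the log2(signal + 16) scale, which understates differences of dim genes, and adjusted p-values are Benjamini-Hochberg values over all 13329 tested probe sets. In all, 39 of them (0.293%) had an adjusted p under 0.05. The cells carried their lineage markers, with summed signals over 5 prostate luminal genes of 13242 and 14013 in MED1 cells against 14604 and 15307 in empty vector cells. None of the 9 probe sets of 6 leukocyte marker genes passed the filter. Their summed signals over genes were 51.0 and 73.7 in MED1 cells against 34.9 and 91.2 in empty vector cells, and the highest single signal was 41.9. Of endothelial and fibroblast markers, 1 of 5 and 1 of 15 probe sets were tested (VWF, 0.03, and COL1A1, 0.08, as log2 fold changes). The 9 luminal probe sets had a median log2 fold change of -0.18, between -0.43 (KLK2, 209855_s_at) and 0.17 (TMPRSS2, 205102_at), and 3 were lower at an unadjusted p under 0.05, against 5.20% of all tested probe sets. These were 2 of the 3 KLK2 probe sets and a second one of TMPRSS2, named after their values were seen. The part of cell state or composition in the results was not tested.

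No probe set of the 40 genes passed the test in the comparison of the 2 groups. The adjusted p-values of the 48 tested probe sets lay between 0.314 and 0.994, so what follows describes values and their intervals. The constitutive proteasome had a median log2 fold change of 0.01 over 39 probe sets, while the 7 probe sets of peptide transport and loading had a median of 0.24. The median over all tested probe sets was -0.02. At an unadjusted p under 0.05, 6 member probe sets were higher in MED1 cells and 0 were lower, where 4.0% and 5.20% of all tested probe sets were. Those 6 belonged to PSMD12 (2 probe sets), PSMB10, TAP1, ERAP1 and B2M. Both MED1 arrays lay above both empty vector arrays for 11 of the 48 and below both for 3, against 17.2% and 22.6% of all tested probe sets. The 3 below were single probe sets of PSMB2 (201404_x_at, -0.10), PSMC3 (-0.13) and PSMD11 (208777_s_at, -0.11), named after their values were seen. For a single gene in this design, p = 0.333 is the smallest value that exact permutation can give, so such separation alone carries no test.

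**Figure D1:**
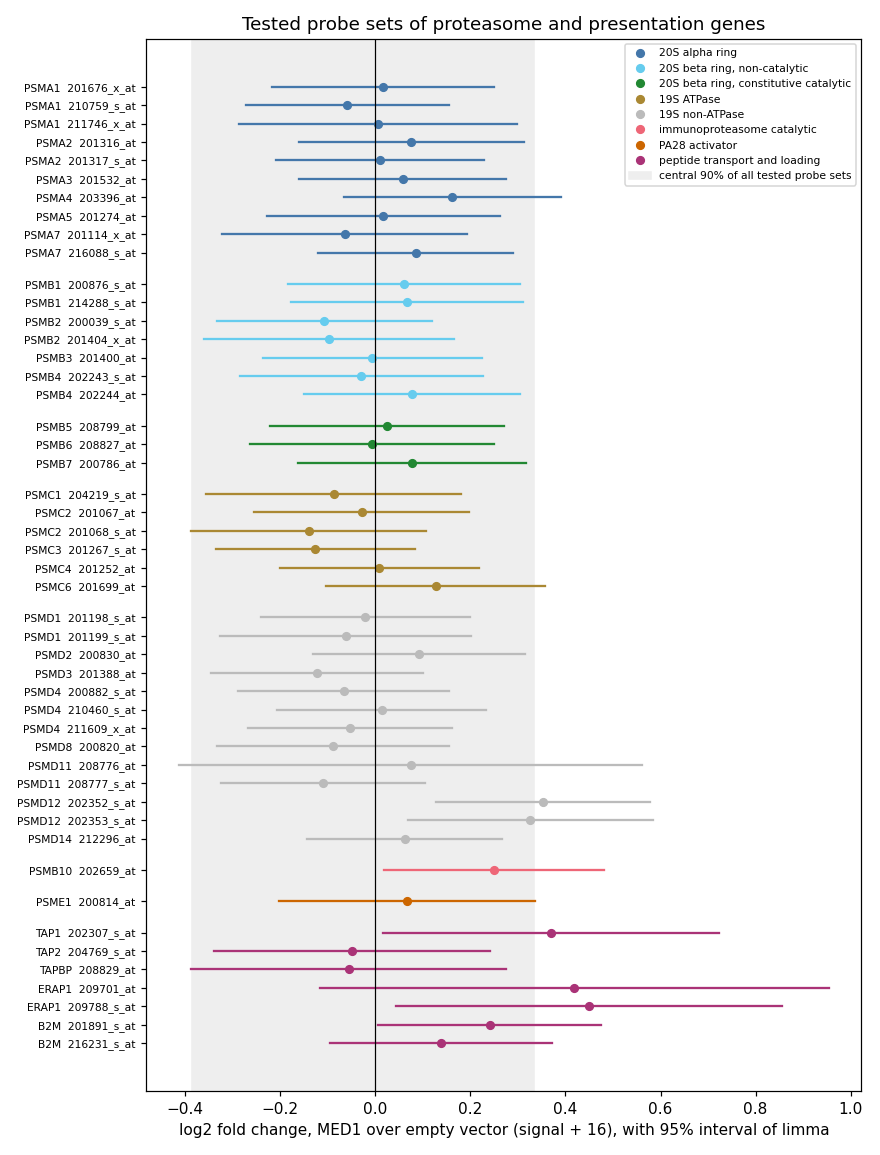
Log2 fold change (MED1 over empty vector, on signal + 16) of the 48 tested member probe sets, with limma's 95% interval as a bar, coloured by role. The grey band is the central 90% of all tested probe sets (-0.38 to 0.33), and beyond it lie only PSMD12 (202352_s_at), TAP1 and both ERAP1 probe sets.

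In the alpha ring, which forms the gate of the barrel, no probe set reached an unadjusted p under 0.05. Of all tested probe sets, 4.0% were higher and 5.20% lower at that level. The 10 tested probe sets of the ring, from 6 genes, had log2 fold changes between -0.06 and 0.16, with a median of 0.02 and 8 positive values. PSMA4 was highest, with signals of 8342 and 8276 in MED1 cells against 7802 and 7062 in empty vector cells (0.16 ± 0.10; limma, adjusted p = 0.646). Its MED1 arrays lay just above its empty vector arrays. PSMA7 was lowest by one probe set (201114_x_at, -0.06 ± 0.11; limma, adjusted p = 0.906), with 7035 and 8180 in MED1 cells against 7500 and 8388 in empty vector cells. A second PSMA7 probe set (216088_s_at) had the opposite sign, 0.09, with 3280 and 3093 against 2992 and 3010, so the gene has no settled direction.

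The beta subunits without catalytic activity gave 7 tested probe sets, 3 positive and 4 negative, with a median of -0.01. PSMB4 was highest by one probe set (202244_at, 0.08 ± 0.10; limma, adjusted p = 0.859), with 8791 and 9485 in MED1 cells against 8792 and 8520 in empty vector cells. Another PSMB4 probe set (202243_s_at) had the opposite sign, -0.03. PSMB2 was lowest (200039_s_at, -0.11 ± 0.10; limma, adjusted p = 0.789), with 4535 and 4408 in MED1 cells against 4517 and 5132 in empty vector cells. In both cases the groups overlapped.

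The 3 constitutive catalytic subunits overlapped between the groups. PSMB5, the chymotrypsin-like subunit, read 3438 and 3957 in MED1 cells against 3401 and 3857 in empty vector cells, a log2 fold change of 0.03 ± 0.11 (limma, adjusted p = 0.967). PSMB6, the caspase-like subunit, read 4862 and 5645 in MED1 cells against 4913 and 5633 in empty vector cells (-0.01 ± 0.11; limma, adjusted p = 0.992). PSMB7, the trypsin-like subunit, read 4435 and 5115 in MED1 cells against 4317 and 4713 in empty vector cells (0.08 ± 0.11; limma, adjusted p = 0.865). For all 3 the arrays differed more by replicate number than by vector: replicate 2 was higher than replicate 1 in both groups. The labels do not say that a replicate number marks a shared batch. Their 95% intervals together spanned -0.26 to 0.32.

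In the base of the 19S cap, the ATPases that unfold substrates had 6 tested probe sets with a median of -0.06, 2 positive and 4 negative. PSMC6 was highest (201699_at, 0.13 ± 0.10; limma, adjusted p = 0.740), with 4833 and 4187 in MED1 cells against 4132 and 4103 in empty vector cells. Its lower MED1 array was close to the empty vector arrays. PSMC2 was lowest (201068_s_at, -0.14 ± 0.11; limma, adjusted p = 0.735), with 5077 and 5829 in MED1 cells against 5662 and 6347 in empty vector cells, and its groups overlapped.

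The non-ATPase subunits of the cap, which include ubiquitin receptors and the deubiquitinase PSMD14, had 13 tested probe sets with a median of -0.02. PSMD3 was lowest (201388_at, -0.12 ± 0.10; limma, adjusted p = 0.743), with 1821 and 1945 in MED1 cells against 1934 and 2171 in empty vector cells. PSMD12, a scaffold subunit of the lid, had the highest log2 fold changes among the constitutive subunits. Its probe set 202352_s_at read 2550 and 2413 in MED1 cells against 2066 and 1818 in empty vector cells. Its second probe set, 202353_s_at, read 1278 and 1145 in MED1 cells against 1049 and 882.0 in empty vector cells. Both MED1 arrays exceeded both empty vector arrays by each of the probe sets.

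The log2 fold changes of PSMD12 were 0.35 ± 0.10 (95% interval 0.13 to 0.58) and 0.33 ± 0.11, with unadjusted p = 0.00595 and 0.0185 and adjusted p = 0.314 and 0.439 in limma. PSMD12 gave the only constitutive probe sets at an unadjusted p under 0.05, 2 of 39, both higher. Of all tested probe sets, 4.0% were higher and 5.20% lower at that level. The other 37 constitutive probe sets lay between -0.14 and 0.16, with a median of 0.01, but PSMD12 was set aside after its values were seen. The antioxidant response element, to which NRF factors bind in several proteasome genes, was searched in the promoter windows as TGACNNNGC on both strands. PSMD12 has 1 match (chr17:67366724-67366752), on the gene's own strand and beginning 165 bases before its start.
PSMD12: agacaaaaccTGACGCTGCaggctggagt
The same letters occurred in 7 of 31 constitutive windows (22.6%) and in 13.3% of all windows. They also occurred in 3 of 13 windows of the immunoproteasome, PA28 and presentation genes (23.1%), those of PSMB9, PSME1 and PSME2. The match is therefore particular neither to PSMD12 nor to the constitutive class.

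**Figure D2:**
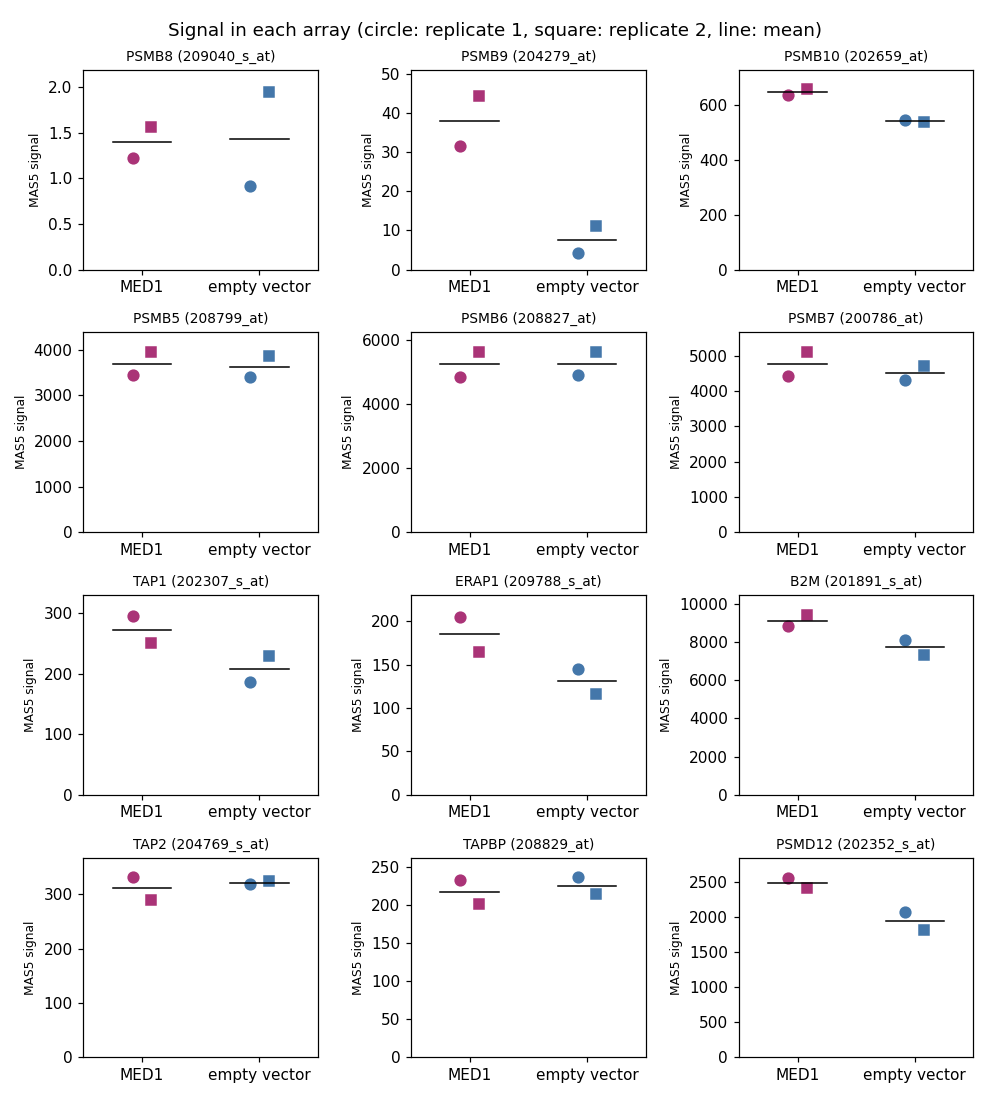
MAS5 signal (linear axes from 0) in each array for 12 member probe sets, with MED1 on the left and empty vector on the right of each panel; circles are replicate 1, squares replicate 2, and lines the means of 2 arrays. For PSMB10, TAP1, ERAP1, B2M and PSMD12 the 2 MED1 points lie above the 2 empty vector points, and PSMB5, PSMB6, PSMB7, TAP2 and TAPBP overlap. PSMB8 and PSMB9 lie on axes reaching about 2 and 50, under or near the filter.

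Of the 3 immunoproteasome subunits, PSMB10 alone passed the filter. PSMB10, which replaces PSMB7, read 638.5 and 657.0 in MED1 cells against 546.4 and 538.2 in empty vector cells, or 647.8 ± 13.1 against 542.3 ± 5.82 (SD, n = 2 each). The gap between the groups was several times the distance between duplicates. Its log2 fold change was 0.25 ± 0.10 (95% interval 0.02 to 0.48), with an unadjusted p = 0.0373 and an adjusted p = 0.498 in limma. PSMB9, which replaces PSMB6, read 31.7 and 44.4 in MED1 cells against 4.2 and 11.0 in empty vector cells. Both MED1 arrays were higher, but the mean log2 value fell under the filter and the probe set was not tested. PSMB8, which replaces PSMB5, read 1.2 and 1.6 in MED1 cells against 0.9 and 1.9 in empty vector cells, far under the filter in all 4 arrays. Detection calls were not used here.

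Without the filter, PSMB9 had a log2 fold change of 1.20 (unadjusted p = 0.00561, adjusted p = 0.538 over all probe sets in limma). The same fit gave TAP2, by its dim probe set 208428_at, a log2 fold change of -0.74 (unadjusted p = 0.0254, adjusted p = 0.609 in limma). The size for PSMB9 rests on the pseudocount: with others, tried after the values were seen, it was 2.28 with a pseudocount of 1 (adjusted p = 0.512) and 0.51 with a pseudocount of 64 (adjusted p = 0.588). Among all 8886 dim probe sets, both MED1 signals exceeded both empty vector signals in 13.3% and were under both in 20.5%. The 10 dim member probe sets had 3 such cases, in PSMB9, PSMB1 (214289_at) and ERAP1 (210385_s_at), and 2 of the opposite kind, both in TAP2.

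Each immunoproteasome subunit was also set against the constitutive subunit it replaces within the same array, as a difference of log2(signal + 16). These compare a change between groups only, since the levels of different probe sets are not on a common scale. PSMB10 minus PSMB7 was -2.77 and -2.93 in MED1 cells against -2.95 and -3.09 in empty vector cells, a difference of 0.17. PSMB9 minus PSMB6 was -6.68 and -6.55 in MED1 cells against -7.93 and -7.71 in empty vector cells, a difference of 1.21. For PSMB8 minus PSMB5 the difference was -0.03. The 2-sided exact permutation p-values were 0.333, 0.333 and 1 (0.5, 0.5 and 1 after Benjamini-Hochberg adjustment over the 3 pairs), where 0.333 is the smallest possible. PSMB9 and PSMB8 are under the filter, so the difference for PSMB9 rests on the pseudocount and that for PSMB8 reflects PSMB5, and neither measures a ratio of subunits.

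PSME1, the alpha subunit of PA28, was tested by 1 probe set. It read 1559.5 and 1855 in MED1 cells against 1493 and 1762 in empty vector cells, with overlapping groups, and its log2 fold change was 0.07 ± 0.12 (95% interval -0.20 to 0.34; limma, adjusted p = 0.905).

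The presentation genes divided into those higher in both MED1 arrays and those that overlapped. TAP1, a subunit of the peptide transporter, read 295.0 and 250.8 in MED1 cells against 186.3 and 229.6 in empty vector cells. The groups did not overlap, but the nearest arrays of the groups were 21.1 signal units apart, less than the distance between duplicates (44.2 in MED1 cells and 43.4 in empty vector cells). Its log2 fold change was 0.37 ± 0.16 (95% interval 0.02 to 0.72; limma, unadjusted p = 0.0417, adjusted p = 0.514). TAP2, its partner subunit, read 332.3 and 290.0 in MED1 cells against 318.4 and 325.1 in empty vector cells by its 1 tested probe set (204769_s_at, -0.05 ± 0.13, 95% interval -0.34 to 0.24; limma, adjusted p = 0.940). The MED1 arrays lay on both sides of the empty vector arrays. Both dim TAP2 probe sets were lower in MED1 cells, 17.3 and 3.3 against 18.0 and 24.7 (204770_at), and 2.0 and 8.1 against 15.3 and 22.7 (208428_at). With the 3 probe sets averaged, the log2 fold change of TAP2 was -0.45 (limma, unadjusted p = 0.0555).

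ERAP1, which trims peptides to the length that class I binds, had 2 tested probe sets, both with positive log2 fold changes. By 209788_s_at it read 204.8 and 164.6 in MED1 cells against 145.3 and 116.5 in empty vector cells (0.45 ± 0.18, 95% interval 0.04 to 0.86; limma, unadjusted p = 0.0332, adjusted p = 0.485). By 209701_at it read 91.6 and 88.9 in MED1 cells against 49.1 and 81.0 in empty vector cells (0.42 ± 0.24; limma, adjusted p = 0.616), with 1 empty vector array close to the MED1 arrays. The first of these was the highest log2 fold change of the 48 member probe sets. Of 3 dim ERAP1 probe sets, 210385_s_at read 34.0 and 36.5 in MED1 cells against 25.9 and 23.0 in empty vector cells. The other dim ones, 214012_at and 214034_at, overlapped between the groups. With all 5 ERAP1 probe sets averaged, dim ones included, the log2 fold change was 0.23 (limma, unadjusted p = 0.285).

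B2M, the light chain of every class I molecule, had 2 tested probe sets. Its probe set 201891_s_at read 8831 and 9415 in MED1 cells against 8110 and 7338 in empty vector cells (0.24 ± 0.10, 95% interval 0.01 to 0.47; limma, unadjusted p = 0.0449, adjusted p = 0.525). By 216231_s_at it read 6744 and 7666 in MED1 cells against 6539 and 6520 in empty vector cells (0.14 ± 0.10; limma, adjusted p = 0.717). By both, each MED1 array was above each empty vector array. TAPBP, the tapasin that bridges the transporter and class I, read 232.1 and 200.5 in MED1 cells against 236.2 and 214.1 in empty vector cells (208829_at, -0.06 ± 0.15, 95% interval -0.39 to 0.28; limma, adjusted p = 0.940). Its groups overlapped, as did those of its dim probe set 210294_at, with 29.6 and 2.8 in MED1 cells against 3.9 and 9.2 in empty vector cells.

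Taken by array, the median of the presentation list kept its sides while that of the constitutive list followed the replicate number. The median deviation of the 7 presentation probe sets from their own mean over the 4 arrays was 0.07 and 0.08 (log2) in MED1 cells against -0.07 and -0.04 in empty vector cells. For the 39 constitutive probe sets it was -0.06 and 0.06 in MED1 cells against -0.04 and 0.03 in empty vector cells, so replicate 2 was the higher array in each group. PSMB10 stood at 0.10 and 0.14 in MED1 cells against -0.11 and -0.14 in empty vector cells. Replicate 2 exceeded replicate 1 in both groups for 24 of the 39 constitutive probe sets (61.5%) and for 0 of the 7 presentation probe sets, against 30.3% of all tested. Replicate 1 exceeded replicate 2 in both groups for 6 of the 39 constitutive probe sets (15.4%) and for 2 of the 7 presentation probe sets (28.6%), against 27.3% of all tested. The presentation list joins few probe sets, and its median of 0.24 was 0.14 without the filter and 0.14 with a filter at the 60th percentile.

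**Figure D3:**
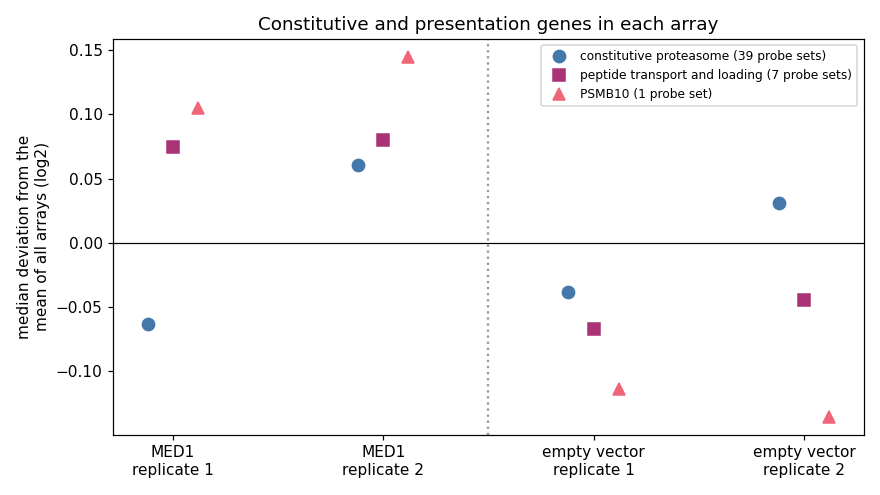
Median deviation (log2) of each class from its probe sets' mean over the 4 arrays, one column per array, with the MED1 arrays left of the dotted line and the empty vector arrays right of it. The median of the 7 presentation probe sets and the value of PSMB10 are above 0 in both MED1 arrays and below 0 in both empty vector arrays. The constitutive median is below 0 in each replicate 1 and above 0 in each replicate 2. Taken singly, the tested probe sets of TAP2 and TAPBP overlap between the groups.

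Where a gene had several tested probe sets, these did not always share a sign: 8 of 13 such members did. B2M, ERAP1 and PSMD12 were among the 8, with probe sets within 0.10, 0.03 and 0.03 of each other on the log2 scale. Of the 48 tested probe sets, 22 carry the suffix s_at and 5 the suffix x_at, by which Affymetrix marks probes shared between transcripts or between different sequences, so closely related transcripts may contribute to these values.

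Genes beyond the 40 that act with them gave no adjusted call either. Of the class I heavy chains, 16 probe sets were tested, 15 of them of the x_at kind that cross-hybridises among these near-identical genes. Their median was -0.02. The highest was HLA-C by 211799_x_at (0.32 ± 0.31; limma, adjusted p = 0.795), with 103.5 and 62.3 in MED1 cells against 86.2 and 42.7 in empty vector cells. The lowest was HLA-G by 211529_x_at, with 349.3 and 317.3 in MED1 cells against 425.5 and 451.6 in empty vector cells (-0.38 ± 0.12; limma, adjusted p = 0.376). The chains that pair with B2M thus showed no common direction, 7 positive and 9 negative.

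Of the chaperones that fold and load class I in the endoplasmic reticulum, 8 probe sets had a median of 0.05, with 2 higher and 0 lower at an unadjusted p under 0.05, against 4.0% and 5.20% of all tested probe sets. HSPA5, the general chaperone of that compartment, was highest, with 5319 and 5182 in MED1 cells against 4136 and 4157 in empty vector cells (0.34 ± 0.09; limma, unadjusted p = 0.0045, adjusted p = 0.277). The other was 1 of 3 CANX probe sets (208853_s_at, 0.31 ± 0.13; limma, adjusted p = 0.496), named after its values were seen. CALR by 200935_at was lowest (-0.11), while its other tested probe sets had the opposite sign (212953_x_at, 0.02, and 214315_x_at, 0.04). Of the transcriptional regulators of presentation, 9 probe sets had a median of -0.14. IRF9, the DNA-binding part of the interferon-activated factor ISGF3, was highest, with 88.2 and 102.0 in MED1 cells against 42.3 and 66.4 in empty vector cells (0.68 ± 0.24; limma, unadjusted p = 0.0175, adjusted p = 0.431). CIITA by 210925_at was lowest (-0.29).

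Other proteasome genes and assembly factors had a median of 0.07 over 27 probe sets. PSME4, an activator cap of its own kind, was highest (212220_at, 0.31). One probe set of PSMF1, an inhibitor of the 20S core, was lowest (201052_s_at), with 320.1 and 304.0 in MED1 cells against 380.5 and 431.7 in empty vector cells (-0.36 ± 0.12; limma, adjusted p = 0.431). A second PSMF1 probe set (201053_s_at) had the opposite sign, with 1332 and 1167 in MED1 cells against 1216 and 958.4 in empty vector cells (0.21 ± 0.13; limma, adjusted p = 0.647), so the gene has no settled direction. Among 11 probe sets of ubiquitin and proteasome stress genes the median was -0.03, with SQSTM1 highest (213112_s_at, 0.41). NFE2L1, the factor that raises proteasome genes when the proteasome is inhibited, was lowest by 200758_s_at, with 798.9 and 926.3 in MED1 cells against 1059 and 1026 in empty vector cells (-0.27 ± 0.11; limma, adjusted p = 0.474), and a second probe set (200759_x_at) gave -0.10.

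**Figure D4:**
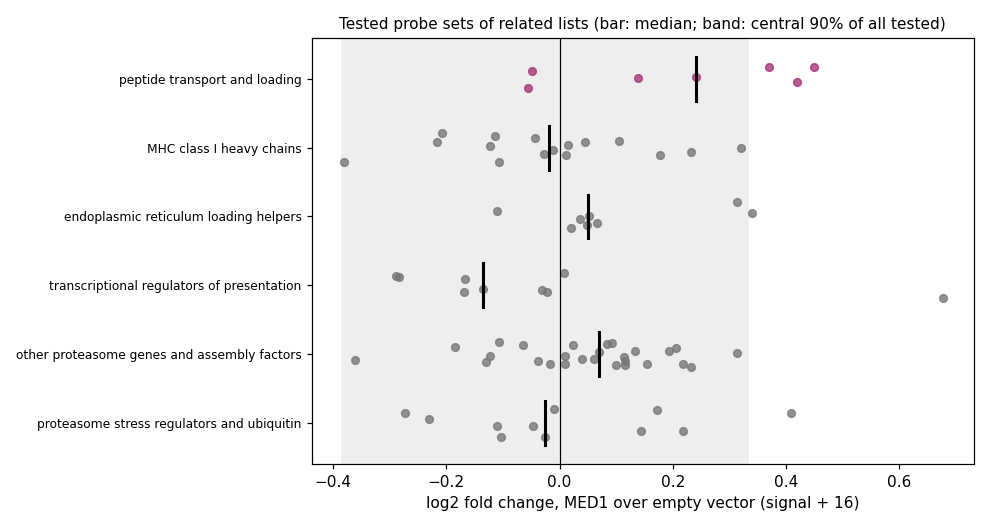
Log2 fold change (MED1 over empty vector, on signal + 16) of every tested probe set of the presentation genes and of 5 related lists, 1 point per probe set, with each list's median as a black bar and the central 90% of all tested probe sets (-0.38 to 0.33) in grey. The presentation genes have the highest median (0.24) of the 6 lists, and IRF9 is the point farthest to the right.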

How the data were processed

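Values were the MAS5 signal (an intensity on a linear scale) that the authors deposited for each probe set, made with MAS5 per the submitters' processing notes; no version is given in the sources used here. Probe sets were named through the platform annotation, and promoters came from RefSeq. Of 22277 rows, 62 controls were left out. The deposited intensities were taken as log2(signal + 16), and probe sets with a mean log2 value below the 40th percentile, which corresponds to a signal of 31.0, were not tested. This left 13329, which were fitted together with limma 3.58.1 in R 4.3.3 (lmFit, eBayes with a trend), adjusting by Benjamini-Hochberg and calling at 0.05. Figures were drawn with matplotlib 3.10.9. The fit was tested on simulated data. Arrays hold no depth; 2 arrays per group limit the precision.

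The 40 genes and the other lists were chosen with earlier results of these data known. Named in the text are the catalytic, PA28 and presentation genes, members with an unadjusted p under 0.05, and the highest and lowest probe set of each remaining group. Alternatives covered the pseudocount, scaling, filter, variance model, averaging of probe sets, probe set kind, the replicate number as a block, and each array left out.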

Additional observations from a re-analysis of the deposited data

Results flagged for a closer look

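Of the 10 member probe sets under the filter, 3 had higher signals in both MED1 arrays than in either empty vector array. The filter kept these 3 out of the main test. PSMB9 (204279_at) had a mean signal of 38.1 in MED1 cells against 7.62 in empty vector cells. ERAP1 (210385_s_at) had a mean of 35.3 in MED1 cells, with arrays of 34.0 and 36.5, against arrays of 25.9 and 23.0 in empty vector cells. PSMB1 (214289_at) had a mean of 24.8 in MED1 cells, with arrays of 20.6 and 29.1, against arrays of 7.1 and 4.8 in empty vector cells. The 2 tested PSMB1 probe sets, 0.06 and 0.07 on the log2 scale, overlapped between the groups. Of all dim probe sets, 13.3% were separated in this direction and 20.5% in the opposite one. The opposite direction held 2 of the 10 dim member probe sets, both of TAP2.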

How the results depend on the processing

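Across the tested probe sets, the deviations of same-numbered arrays from their group means correlated at 0.12. The design holds only 2 such pairs of arrays, too few to take the numbers as pairs. With the replicate block, 239 probe sets were called in place of 39, including 1 member, PSMD12 202352_s_at (adjusted p = 0.0356 in limma), and HSPA5 (adjusted p = 0.0223). No member was called under the other alternatives. The MED1 probe set was not called without the filter (adjusted p = 0.381), without the trend (0.358) or with probe sets averaged (0.0837). All-array calls numbered 62 at an adjusted p under 0.1, 0 without the filter (limma; 1680 at an unadjusted p under 0.05), 5 without the trend, and 25 to 216 with 1 array left out. Member probe sets with an unadjusted p under 0.05 numbered 2 without the trend, and 2 to 4 with 1 array left out, in place of 6. The constitutive median ranged from -0.0734 to 0.0521 when arrays were left out. The presentation median of 0.24 was 0.29 with median centring, 0.22 with quantile normalization, 0.14 without the filter and with the filter at the 60th percentile, 0.19 with a gene's probe sets averaged, 0.18 without s_at and x_at probe sets, and 0.14 to 0.26 with 1 array left out. Its difference from the constitutive median, 0.23, was 0.13 without the filter, 0.13 with the stricter filter, 0.12 without s_at and x_at probe sets, and 0.12 to 0.27 with 1 array left out. The cause was not tested.

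Of 37 named results, 12 changed sign under some alternative, and none of the 12 was called. With probe sets averaged, PSMA7 was 0.0107, TAPBP 0.17 and TMPRSS2 -0.0711, and without a change of sign TAP2 was -0.45, ERAP1 0.23, PSMF1 -0.08, NFE2L1 -0.14 and HLA-G -0.19; with median centring, PSMB6 was 0.0460 and TAP2 0.00304. With 1 array left out, the ranges were -0.173 to 0.0445 for PSMA7, -0.0750 to 0.127 for PSMB5, -0.113 to 0.101 for PSMB6, -0.0242 to 0.181 for PSMB7, -0.0563 to 0.192 for PSME1, -0.142 to 0.0446 for TAP2, -0.154 to 0.0425 for TAPBP, -0.0787 to 0.719 for HLA-C, -0.703 to 0.127 for CIITA, -0.0250 to 0.356 for TMPRSS2, -0.12 to 0.18 for VWF and -0.46 to 0.62 for COL1A1. PSMB10 (0.23 to 0.27), TAP1 (0.23 to 0.51), ERAP1 (0.31 to 0.60 for 209788_s_at, 0.13 to 0.71 for 209701_at), B2M (0.17 to 0.31 for 201891_s_at, 0.05 to 0.23 for 216231_s_at) and PSMD12 (0.26 to 0.44 for 202352_s_at, 0.20 to 0.45 for 202353_s_at) kept their sign with each array left out, but the values of TAP1 and of the second probe sets of these genes moved by over 1.5 times.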
